A study of Mus musculus with 24 samples.

Results

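The 39 genes described here encode the transcription factor NRF2 (Nfe2l2), its inhibitor KEAP1 and a set of known NRF2 targets and glutathione enzymes, and they were picked by symbol from the 36528 genes of each deposited table. The choice was made with earlier results of these data known. All 39 symbols had a row, and all 39 passed the filter on low counts. Polyadenylated RNA was sequenced from primary organoids of mouse small intestine, which are cultures of gut epithelium in a gel, with no genotype, strain, age or dose in the labels. The 24 libraries form 6 groups of 4: dFz7-21 at 24 h, Fz7-21S at 24 h, DMSO at 24 h, dFz7-21 at 6 h, Fz7-21S at 6 h and DMSO at 6 h. By the series' design text, the peptide dFz7-21 acts against Frizzled 7, a receptor for Wnt ligands, while Fz7-21S is given by name only and DMSO is a solvent. Nothing in the labels says that the replicates were separate cultures or animals, so p-values here measure a spread between samples that may be technical.

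NRF2 is a transcription factor that KEAP1 hands to a cullin 3 ubiquitin ligase for destruction. Oxidants and electrophiles that modify KEAP1 let NRF2 build up, enter the nucleus, pair with a small MAF protein and bind antioxidant response elements. Its targets make glutathione and NADPH, reduce quinones and carbonyls, repair oxidised thiols, and join glutathione to foreign compounds for export. In the gut the epithelium uses these enzymes against compounds in the diet. Because NRF2 is mainly controlled as a protein, the level of Nfe2l2 mRNA is not a measure of its activity.

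Total counts per library lay between 20446610 and 33102993. Levels below are in CPM, a gene's count scaled to a common library size with TMM normalisation, given as the 4 libraries of a group in the order of their replicate numbers or as mean ± SD (n = 4). Epithelial markers were high in every group, with 7 genes summing to between 9410 and 17805 CPM. A list of 10 mesenchymal genes summed to 1007 CPM in replicate 3 of dFz7-21 at 24 h and to 215 and 169 CPM in replicates 1 and 2 of DMSO at 6 h, against 3.14 to 7.96 CPM in the other 21 libraries, while Dcn and Lum were at 0 in all 24. Replicate 4 of Fz7-21S at 24 h stood apart from its own group, so counts of calls and the values that moved most are also given without these libraries.

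Promoters of the members were searched for the core of the antioxidant response element. The members were listed as known NRF2 targets and glutathione enzymes, so an excess over all genes says nothing of these libraries. The RefSeq table (GRCm38.p6) held 300-base windows, 250 before and 50 after a start site, for 34 of the 39 members. The word TGACNNNGC, on either strand, was in 12 of the 44 member windows (27.3%), against 12.4% of the 32851 windows of all genes. The word TGANTCAGC, a related but different word added after the first result was seen, was in 5 of 44 member windows (11.4%), against 1.19% of all windows. It is not a narrower form of the first, and the windows of Osgin1 and Gstp1 held it without the first word. Where both words matched, as in 3 of the member windows, they could share bases. The 5 stretches below hold TGANTCAGC in capitals, and they are shown because they are from the members with that word. Each runs 5′ to 3′ along the strand of the gene.
Srxn1, chr2:152105419-152105527, plus strand: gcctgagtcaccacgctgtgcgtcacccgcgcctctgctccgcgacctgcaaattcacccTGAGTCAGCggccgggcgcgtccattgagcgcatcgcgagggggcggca
Me1, chr9:86695890-86695980, minus strand: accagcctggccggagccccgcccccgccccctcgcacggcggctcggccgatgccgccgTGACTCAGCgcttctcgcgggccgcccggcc
Osgin1, chr8:119436988-119437096, plus strand: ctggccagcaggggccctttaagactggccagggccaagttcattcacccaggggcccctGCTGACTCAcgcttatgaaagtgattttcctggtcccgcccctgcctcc
Prdx1, chr4:116685406-116685514, plus strand: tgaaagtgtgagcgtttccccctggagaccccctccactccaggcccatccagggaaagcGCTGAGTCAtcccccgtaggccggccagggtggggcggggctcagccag
Gstp1, chr19:4037938-4038046, minus strand: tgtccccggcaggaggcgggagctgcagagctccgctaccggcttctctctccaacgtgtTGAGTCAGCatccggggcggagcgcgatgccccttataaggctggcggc
The match began 45 bases before the start site of its window in Srxn1, 6 in Me1, 99 in Osgin1, 133 in Prdx1 and 74 in Gstp1. The Osgin1 window (chr8:119436897-119437196) lies inside the gene (chr8:119425882-119446257), so its start site is an internal one. At 24 h of dFz7-21 the first 3 of these genes rose and the other two did not pass the test. A match is a description of the letters and not a bound site. Genes without a match in their windows, such as Nqo1 and Akr1b8, also rose, and bases outside the windows were not searched.

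Organoids given dFz7-21 for 24 h had more mRNA of most NRF2 targets than organoids given DMSO. In edgeR's quasi-likelihood test, 31 of the 39 members rose and 2 fell at an adjusted p below 0.05, while 35.9% of all 15429 genes tested were called (18.2% higher and 17.7% lower). The median log2 change over the members was 0.47, against -0.01 over all genes. In 34 members the 4 dFz7-21 libraries did not overlap the 4 DMSO libraries, as was so in 38.4% of all genes tested. The changes were moderate: the log2 values lay between -1.05 for Abcc4 and 1.37 for Cbr3. In such bulk samples, fewer cells of a type and less RNA per cell cannot be told apart.

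The quinone and carbonyl reductases with the epoxide hydrolase held the largest rise, that of Cbr3, and all 5 members of this role rose with dFz7-21 at 24 h. Nqo1 (chr8:107388225-107403205), which reduces quinones to hydroquinones, had 191, 187, 174 and 188 CPM with dFz7-21, 143, 141, 136 and 136 CPM with Fz7-21S and 112, 103, 96.5 and 112 CPM with DMSO. The 3 groups did not overlap, and Fz7-21S lay in the middle. Nqo1 rose 1.74-fold with dFz7-21 (log2 0.80 ± 0.06 SE, adjusted p = 6.66e-11) and 1.31-fold with Fz7-21S (log2 0.39 ± 0.06, adjusted p = 0.00065). Cbr3 (chr16:93683219-93690991), a carbonyl reductase, had 101, 103, 97.8 and 99.4 CPM with dFz7-21, 62.5, 72.1, 72.0 and 102 CPM with Fz7-21S and 40.4, 38.0, 33.6 and 43.5 CPM with DMSO. Both peptide groups lay above every DMSO library, and replicate 4 of Fz7-21S lay within the dFz7-21 range. Cbr3 rose 2.58-fold with dFz7-21 (log2 1.37 ± 0.11, adjusted p = 7e-10) and 1.98-fold with Fz7-21S (log2 0.99 ± 0.11, adjusted p = 2.25e-05).

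Akr1b8 (chr6:34354146-34368461), an aldo-keto reductase that removes reactive aldehydes, had 71.5, 73.0, 70.3 and 66.8 CPM with dFz7-21, 49.7, 48.0, 54.9 and 69.7 CPM with Fz7-21S and 32.8, 27.2, 26.4 and 33.8 CPM with DMSO at 24 h. Every library of either peptide was above every DMSO library. It rose 2.34-fold with dFz7-21 (log2 1.23 ± 0.09, adjusted p = 4.3e-10) and 1.85-fold with Fz7-21S (log2 0.88 ± 0.09, adjusted p = 2.25e-05). Cbr1, the neighbour of Cbr3 on chromosome 16 and also a carbonyl reductase, rose by log2 0.74 ± 0.08 with dFz7-21 and 0.45 ± 0.08 with Fz7-21S. Ephx1, the microsomal epoxide hydrolase, rose by 0.49 ± 0.09 with dFz7-21 (0.42 without its replicate 3) and was not called with Fz7-21S (0.21 ± 0.09, adjusted p = 0.189).

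**Figure D1:**
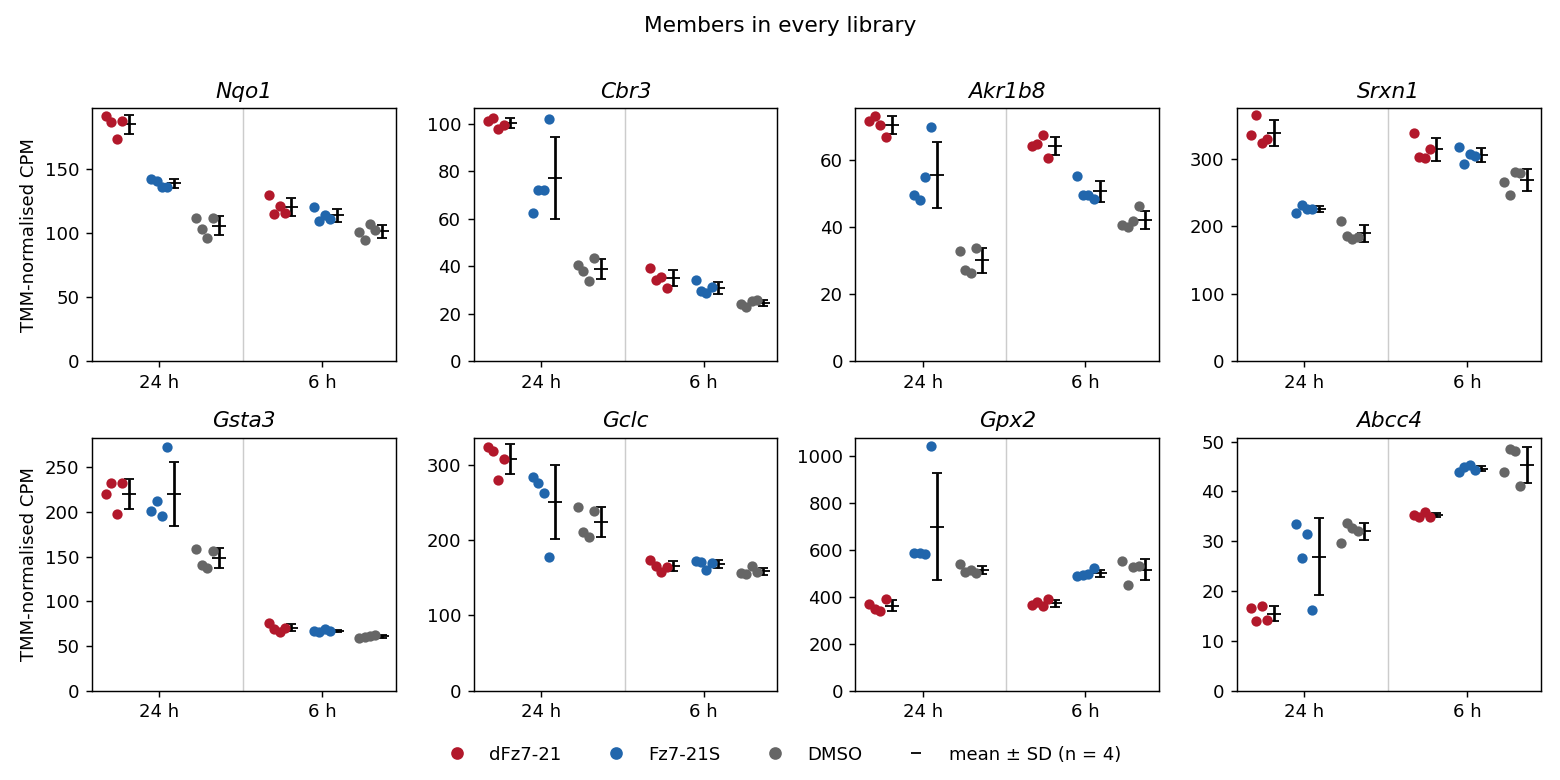
TMM-normalised CPM (y axes, starting at 0) of 8 members in every library, at 24 h on the left and 6 h on the right of each panel, with dFz7-21 in red, Fz7-21S in blue and DMSO in grey; points are libraries in replicate order and bars are mean ± SD (n = 4). Nqo1 shows 3 separate groups at 24 h, Gpx2 and Abcc4 are lowest with dFz7-21, and replicate 4 of Fz7-21S at 24 h is far from its group in Cbr3, Gclc, Gpx2 and Abcc4.

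The glutathione supply genes all rose with dFz7-21 at 24 h. Gclc (chr9:77754535-77794489) and Gclm (chr3:122245487-122267215) are the catalytic and modifier subunits of glutamate-cysteine ligase, the first and rate-limiting step of glutathione synthesis. Gclm had 168, 161, 150.2 and 164 CPM with dFz7-21, 152, 158, 149.8 and 155 CPM with Fz7-21S and 132, 129, 121 and 129 CPM with DMSO. Both peptide groups were above every DMSO library and overlapped each other. Gclm rose 1.26-fold with dFz7-21 (log2 0.33 ± 0.04, adjusted p = 1.4e-06) and also with Fz7-21S (log2 0.27 ± 0.04, adjusted p = 0.00305). Gclc had 323, 319, 279 and 308 CPM with dFz7-21, 284, 277, 262 and 178 CPM with Fz7-21S and 244, 211, 204 and 239 CPM with DMSO. Replicate 4 of Fz7-21S was below every DMSO library, while the other 3 were above them. Gclc rose 1.37-fold with dFz7-21 (log2 0.45 ± 0.09, adjusted p = 0.000523) and was not called with Fz7-21S (log2 0.16 ± 0.09, adjusted p = 0.291). Without that library the Fz7-21S value was 0.29 ± 0.06 (adjusted p = 0.00949).

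Slc7a11 (chr3:50364936-50499087), the cystine importer that feeds glutathione synthesis, had 38.3, 38.1, 29.1 and 36.0 CPM with dFz7-21, 45.6, 40.9, 36.1 and 20.8 CPM with Fz7-21S and 27.8, 26.0, 24.8 and 23.2 CPM with DMSO at 24 h. Again replicate 4 of Fz7-21S was the lowest of the 12 libraries. Slc7a11 rose 1.39-fold with dFz7-21 (log2 0.47 ± 0.15, adjusted p = 0.0192), a call that was lost without DMSO replicate 4 (adjusted p = 0.0587). The Fz7-21S value was 0.49 ± 0.15 (adjusted p = 0.162) with all libraries and 0.68 ± 0.10 (adjusted p = 0.000432) without its replicate 4. Gsr (chr8:33653238-33698162), glutathione reductase, which regenerates glutathione from its oxidised form, had 711, 703, 648 and 701 CPM with dFz7-21, 538, 581, 548 and 609 CPM with Fz7-21S and 532, 517, 491 and 516 CPM with DMSO. The dFz7-21 libraries were the 4 highest, and Gsr rose by log2 0.43 ± 0.05 (adjusted p = 7.24e-08).

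The thioredoxin and peroxidase genes did not move as one: 3 of 5 rose, 1 fell and 1 was not called with dFz7-21 at 24 h. Srxn1 (chr2:152105524-152111376), sulfiredoxin, which repairs over-oxidised peroxiredoxins, had 335, 366, 323 and 330.5 CPM with dFz7-21, 219, 231, 226 and 226 CPM with Fz7-21S and 209, 185, 181 and 184 CPM with DMSO. The groups did not overlap, with dFz7-21 far above the other two. Srxn1 rose 1.79-fold with dFz7-21 (log2 0.84 ± 0.06, adjusted p = 3.68e-11), the smallest p of the 39 members. With Fz7-21S its log2 change was 0.25 ± 0.06 (adjusted p = 0.0507). Txnrd1 (chr10:82833951-82897724), cytosolic thioredoxin reductase, had 687, 703, 652 and 653 CPM with dFz7-21, 589.7, 587, 554 and 432 CPM with Fz7-21S and 571, 567, 516 and 547 CPM with DMSO. It rose by 0.29 ± 0.07 with dFz7-21 (adjusted p = 0.00137), and Fz7-21S did not separate from DMSO (-0.02 ± 0.07). Txn1, thioredoxin, rose by 0.37 ± 0.11 with dFz7-21, and Prdx1, a peroxiredoxin that removes hydrogen peroxide, was not called (95% interval -0.08 to 0.27).

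Gpx2 (chr12:76792335-76795554), the glutathione peroxidase of the gut epithelium, went the other way. It had 368, 348, 338 and 390.3 CPM with dFz7-21, 586, 587, 579.8 and 1041 CPM with Fz7-21S and 537, 506, 515 and 501 CPM with DMSO at 24 h. All dFz7-21 libraries were below all DMSO libraries, and all Fz7-21S libraries were above them. Gpx2 fell with dFz7-21, 1.43-fold lower than with DMSO (log2 -0.51 ± 0.12, adjusted p = 0.00235), and was 1.94-fold lower than with Fz7-21S (log2 -0.95 ± 0.13, adjusted p = 2.67e-06). The Fz7-21S change against DMSO was 0.44 ± 0.12 (adjusted p = 0.162), and 0.18 ± 0.05 (adjusted p = 0.335) without replicate 4. Gpx2 is most abundant in intestinal crypts, and crypt cell markers moved with it. The 4 stem cell genes summed to 170.3 to 254 CPM with dFz7-21, 1859.8 to 2057 CPM with Fz7-21S and 1793 to 2444 CPM with DMSO. The 6 Paneth cell genes summed to 3314 to 3847 CPM with dFz7-21, 5031 to 8051 CPM with Fz7-21S and 4775 to 5608 CPM with DMSO. Their part in the Gpx2 result was not tested.

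Of the 5 NADPH supply genes, 3 rose and 2 were not called with dFz7-21 at 24 h. Me1 (chr9:86581363-86695914), malic enzyme, had 40.4, 41.7, 41.8 and 45.9 CPM with dFz7-21, 30.4, 33.4, 29.1 and 43.3 CPM with Fz7-21S and 27.5, 24.5, 22.6 and 24.7 CPM with DMSO. Each peptide group lay wholly above DMSO, and Me1 rose 1.71-fold with dFz7-21 (log2 0.77 ± 0.09, adjusted p = 4.75e-07) and 1.37-fold with Fz7-21S (log2 0.45 ± 0.09, adjusted p = 0.029). Of the pentose phosphate enzymes, Pgd rose by 0.44 ± 0.06 and Tkt by 0.27 ± 0.06 with dFz7-21. G6pdx, the first enzyme of that pathway, was not called (95% interval -0.02 to 0.17), nor was Taldo1 (-0.00178 to 0.35). None of these 4 was called with Fz7-21S, where their log2 changes lay between 0.12 and 0.23.

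Of the 4 haem and iron genes 3 rose with dFz7-21 at 24 h. Blvrb, biliverdin reductase B, and the ferritin chains Fth1 and Ftl1, which store iron, rose by 0.40 ± 0.12, 0.30 ± 0.10 and 0.33 ± 0.10, and none of the 4 genes was called with Fz7-21S. With only the 24 h libraries in the fit these 3 calls were lost at the same log2 values, with an adjusted p of 0.0538 for Blvrb, 0.0945 for Fth1 and 0.058 for Ftl1, as were those of Txn1 (0.0813), Slc7a11 (0.0766) and Keap1 (0.128). Hmox1 (chr8:75093618-75100593), haem oxygenase 1, a classical NRF2 target that other factors also induce, had 7.33, 7.32, 31.3 and 7.35 CPM with dFz7-21, 8.25, 8.13, 7.74 and 9.48 CPM with Fz7-21S and 8.14, 9.52, 6.22 and 6.84 CPM with DMSO. The high value was in the library with mesenchymal transcripts, and the other 3 dFz7-21 libraries lay within the DMSO range. Hmox1 was not called (log2 0.81 ± 0.34, adjusted p = 0.0702), and without that library its change was -0.04 ± 0.16. At 6 h the highest DMSO values, 18.8 and 23.2 CPM, were likewise in the 2 libraries with mesenchymal transcripts.

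Glutathione transferases join glutathione to electrophiles, and 10 of the 11 members rose with dFz7-21 at 24 h. Gsta3 (chr1:21240565-21265575), an alpha class transferase, had 219.6, 232, 197 and 233 CPM with dFz7-21, 201, 212, 195 and 272 CPM with Fz7-21S and 159, 141, 137 and 157 CPM with DMSO. The peptide groups overlapped each other and were both above DMSO. Gsta3 rose 1.48-fold with dFz7-21 (log2 0.57 ± 0.08, adjusted p = 4e-06) and 1.48-fold with Fz7-21S (log2 0.57 ± 0.08, adjusted p = 0.00065). Gstm1, Gstm2, Gstm3 and Gstm4, mu class genes in 1 cluster at chr3:107963696-108045179, rose by 0.96 ± 0.10, 0.61 ± 0.11, 1.21 ± 0.12 and 0.92 ± 0.11 with dFz7-21. Of these 4, Gstm1 alone was called with Fz7-21S, with changes between 0.36 and 0.54. Gsta2 rose by 1.23 ± 0.16 with dFz7-21 and 0.98 ± 0.16 with Fz7-21S, at a low level of 7.21 ± 0.253, 6.04 ± 0.950 and 3.04 ± 0.760 CPM with dFz7-21, Fz7-21S and DMSO. Gsta4 rose by 0.59 ± 0.10 with dFz7-21, and Gstp1, the pi class member, was not called (95% interval 0.01 to 0.42).

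The membrane-bound transferases Mgst1, Mgst2 and Mgst3 rose by 0.49 ± 0.07, 0.81 ± 0.12 and 0.58 ± 0.11 with dFz7-21 at 24 h. Mgst1 (chr6:138140527-138156755) had 437, 483, 424 and 492 CPM with dFz7-21, 349, 384, 358 and 466 CPM with Fz7-21S and 342, 323, 326 and 320.4 CPM with DMSO, and both peptide groups were above DMSO. With Fz7-21S, Mgst2 rose by 0.58 ± 0.12 (adjusted p = 0.0465), and Mgst1 and Mgst3 were not called. Mgst2 had 261, 288, 274 and 487 CPM with Fz7-21S, the highest in replicate 4, and without that library its change was 0.32 ± 0.05 (adjusted p = 0.00125). Some of these genes share sequence with close copies, which can lose or trade reads under unique alignment. Of the 50-base words of the longest transcript, 90.6% in Ftl1, 64.2% in Gsta2, 62.3% in Gstp1, 32.8% in Me1, 28.8% in Gstm3 and 23.1% in Gstm1 also occur in another gene, so their values are uncertain. Apart from this, 9 members (Txnrd1, Prdx1, G6pdx, Tkt, Me1, Gsta3, Gstm4, Abcc4 and Osgin1) overlap another gene model, and with no strand setting given, reads of overlapping genes cannot be told apart.

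Neither member that exports glutathione conjugates rose. Abcc4 (chr14:118482692-118707856), an exporter of conjugates and cyclic nucleotides, had 16.6, 14.0, 17.0 and 14.3 CPM with dFz7-21, 33.4, 26.6, 31.5 and 16.2 CPM with Fz7-21S and 29.7, 33.7, 32.6 and 32.1 CPM with DMSO at 24 h. Every dFz7-21 library was below every DMSO library, and among the Fz7-21S libraries replicate 4 alone was within the dFz7-21 range. Abcc4 fell with dFz7-21, 2.07-fold lower than with DMSO (log2 -1.05 ± 0.13, adjusted p = 1.24e-06). Its Fz7-21S change was -0.25 ± 0.13 (adjusted p = 0.232), and -0.07 ± 0.07 without replicate 4. Abcc1 (chr16:14361453-14474878), another conjugate exporter, had 54.8, 48.1, 53.9 and 44.6 CPM with dFz7-21, 58.0, 53.0, 51.0 and 31.6 CPM with Fz7-21S and 48.9, 51.3, 52.0 and 56.9 CPM with DMSO, groups that overlapped and were not called. Osgin1, an oxidative stress induced growth inhibitor, rose by 0.78 ± 0.07 with dFz7-21 and 0.32 ± 0.07 with Fz7-21S.

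The regulators themselves moved least among the called genes. Nfe2l2 (chr2:75675513-75704663) had 353, 356, 331 and 353 CPM with dFz7-21, 301, 299, 292 and 281 CPM with Fz7-21S and 311, 282, 294 and 313 CPM with DMSO at 24 h. The dFz7-21 libraries were the 4 highest, and the other two groups overlapped. Nfe2l2 rose 1.16-fold with dFz7-21 (log2 0.22 ± 0.04, adjusted p = 0.000369), and its Fz7-21S change was -0.03 ± 0.04 (adjusted p = 0.647). Keap1 (chr9:21229730-21239332) had 116, 112, 124 and 118 CPM with dFz7-21, 103, 99.1, 117 and 113 CPM with Fz7-21S and 102, 113, 105 and 104 CPM with DMSO. The dFz7-21 and DMSO groups overlapped, and the call with dFz7-21 (log2 0.15 ± 0.06, adjusted p = 0.0467) was lost in 8 of the 24 fits that left out 1 library, those without replicate 3 of dFz7-21, replicates 1, 3 and 4 of DMSO at 24 h, replicates 1 and 4 of Fz7-21S at 6 h or replicates 3 and 4 of DMSO at 6 h, with adjusted p up to 0.0952. The 31 calls other than Keap1 and Slc7a11 held in every such fit.

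Per unit length the members spanned a wide range. In DMSO at 24 h the authors' RPKM averaged 978 for Txn1, 738 for Fth1 and 627 for Gsta4, and 2.64 for Slc7a11, the lowest. Genes with large changes with dFz7-21 stood at different levels. Cbr3 had 86.3 RPKM with dFz7-21 and 33.0 RPKM with DMSO, and Akr1b8 54.2 RPKM with dFz7-21 and 22.8 RPKM with DMSO. Gstm3 averaged 924 RPKM with dFz7-21 and 396 RPKM with DMSO.

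With Fz7-21S at 24 h few genes were called, and some of them were members. Against DMSO, 40 of 15429 genes were called (0.259%), all higher, and 11 of them were members, which is 27.5% of the called genes and 28.2% of the members. Since the members were chosen with earlier results of these data known, these shares describe them and are not a test of the set. At an unadjusted p under 0.05 there were 3673 genes, and DESeq2 called 136. The 11 are Gclm, Nqo1, Cbr1, Cbr3, Akr1b8, Me1, Gsta2, Gsta3, Gstm1, Mgst2 and Osgin1. The median log2 change of all 39 was 0.33, against 0.01 over all genes, 35 of the 39 values were positive, and in 21 members the 4 Fz7-21S libraries did not overlap the 4 DMSO libraries, as was so in 5.26% of all genes tested. Every one of the 11 also rose with dFz7-21, but the peptides share their 4 DMSO libraries, so these are not separate tests.

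The count for Fz7-21S depended on single libraries. It was 13 of 41 called genes without replicate 4, with Gclc, Slc7a11 and Srxn1 gained and Gstm1 lost. It was 26 of 1390 called genes without replicate 1 of Fz7-21S at 24 h. It was 7 without DMSO 24 h replicate 2 or 3, or Fz7-21S 6 h replicate 3, and 7 without the 3 libraries that hold mesenchymal transcripts. With only the 24 h libraries in the fit it was 2, and 13 when replicate 4 was also left out. Gclm, Nqo1, Cbr1, Cbr3, Akr1b8, Gsta2 and Gsta3 were called in every fit that left out 1 library, while Gstm1, Mgst2 and Osgin1 were lost in 21, 20 and 21 of the 24 and Me1 in 5, those without replicate 2 of Fz7-21S at 24 h, replicates 2, 3 and 4 of DMSO at 24 h or replicate 3 of Fz7-21S at 6 h. Gstm1 was kept without replicate 1 of Fz7-21S or 4 of DMSO at 24 h or 1 of dFz7-21 at 6 h, Mgst2 without any of the 4 Fz7-21S libraries at 24 h, and Osgin1 without replicate 1 or 4 of Fz7-21S at 24 h or 1 of DMSO at 6 h.

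**Figure D2:**
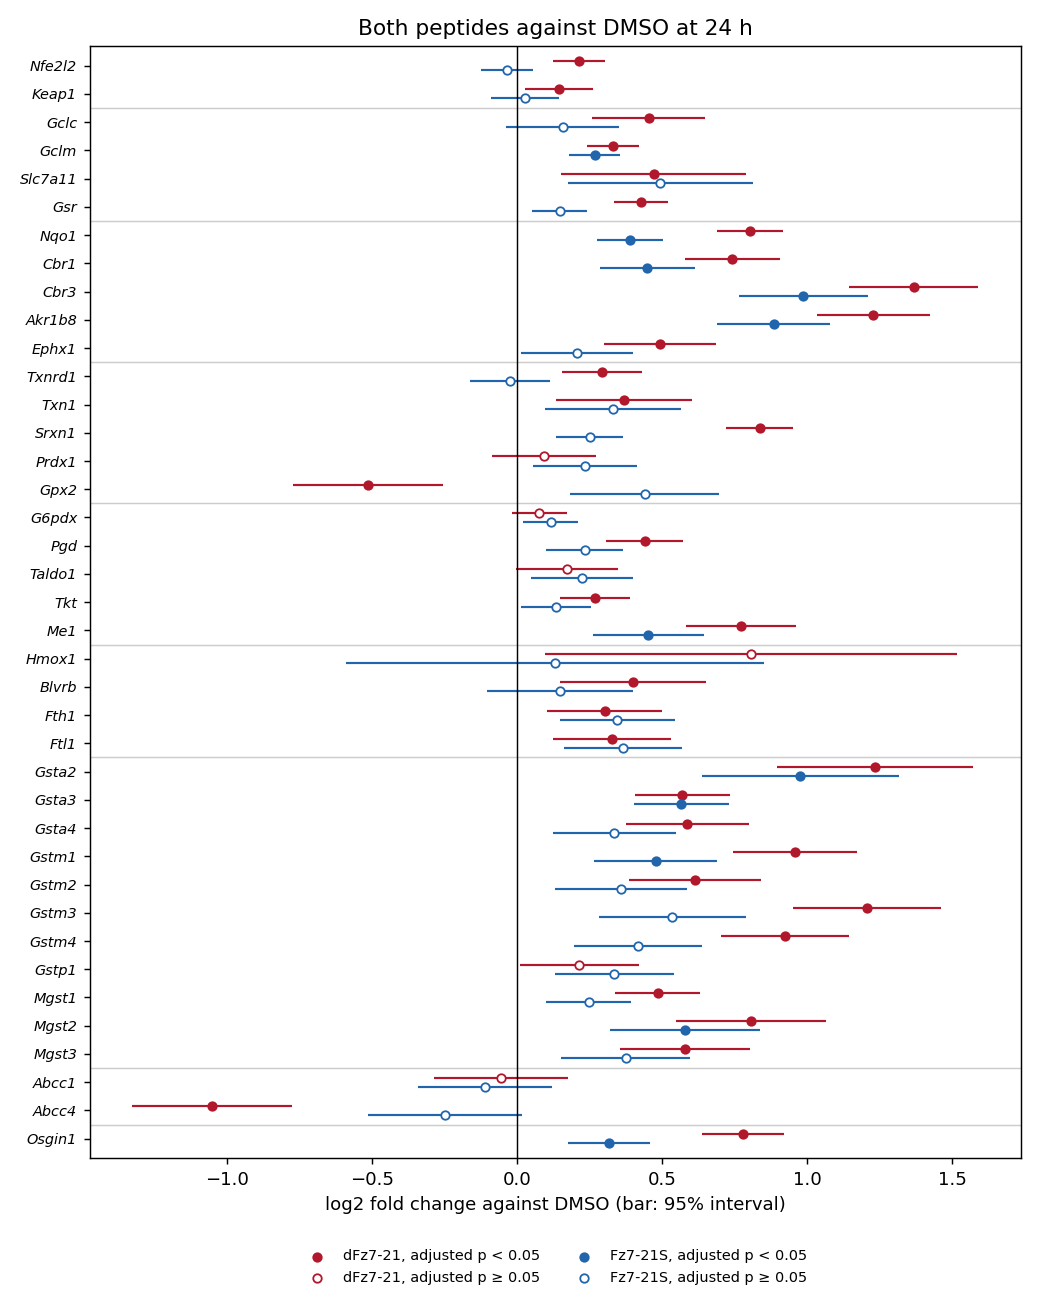
Log2 fold change against DMSO at 24 h (x axis, 0 marked) for all 39 members grouped by role, with dFz7-21 in red above Fz7-21S in blue; bars are 95% intervals and filled points have an adjusted p below 0.05. With dFz7-21, 33 points are filled, 31 of them right of 0, and with Fz7-21S 11 are filled, all right of 0.

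Replicate 4 of Fz7-21S at 24 h was above the other 3 libraries of its group in 27 members and below them in 8. Txn1 was 1894 CPM there against 1059, 1152 and 1109.6 CPM in the others. Its Paneth cell genes summed to 8051 CPM, against 5031 to 5329 CPM in the other 3, and its 4 stem cell genes to 1859.8 CPM, against 1918 to 2057 CPM. Its goblet cell genes summed to 3374 CPM, against 2537 to 2719 CPM, and its enterocyte genes to 6721 CPM, against 5222 to 5947 CPM. Among goblet genes, Tff3 was at 1329 CPM, against 735 to 793 CPM, but Fcgbp at 751 CPM, against 985 to 1074 CPM. Among enterocyte genes, Apoa1 was at 2145 CPM, against 1101 to 1461 CPM, but Sis at 395 CPM, against 610 to 753 CPM. Among stem cell genes, Ascl2 was at 50.8 CPM, against 29.0 to 34.5 CPM, but Lgr5 at 55.1 CPM, against 79.6 to 96.0 CPM. Of the members, Slc7a11, Abcc4, Abcc1 and Gclc were lowest against the mean of replicates 1 to 3 (ratios 0.51, 0.53, 0.59 and 0.65). Their longest transcripts had 9223, 5715, 6792 and 3423 bases. Gpx2, Mgst2, Txn1 and Mgst3 were highest (1.78, 1.77, 1.71 and 1.64), with 3165, 2803, 1051 and 1097 bases. Gclm, with 5589 bases, was at 1.01. The part of cell types or of transcript length in the member values of that library, and why it differed, was not tested. In 23 members replicates 1 to 3 alone were all above the 4 DMSO libraries, as was so in 3.52% of all genes tested.

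Leaving out replicate 4 lowered most of the Fz7-21S values that had been called. Without it the log2 change was 0.82 ± 0.07 for Cbr3, 0.32 ± 0.05 for Cbr1, 0.76 ± 0.07 for Akr1b8, 0.86 ± 0.16 for Gsta2, 0.44 ± 0.06 for Gsta3 and 0.31 ± 0.07 for Me1 (adjusted p = 0.0427). Gclm, Nqo1 and Osgin1 moved less, to 0.26, 0.40 and 0.33. Gstm1 was then not called (0.38 ± 0.11, adjusted p = 0.365).

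**Figure D3:**
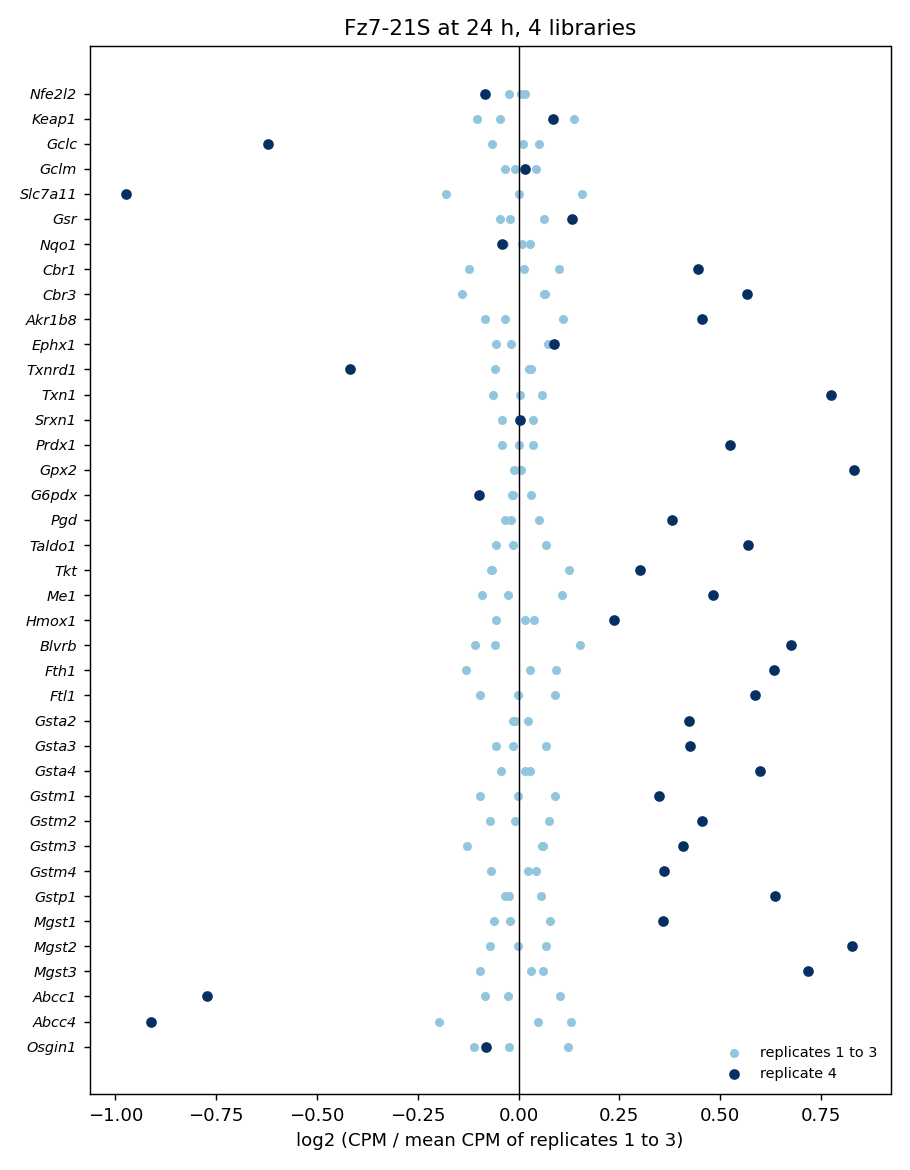
Log2 ratio of each Fz7-21S 24 h library to the mean CPM of its replicates 1 to 3 (x axis), for the 39 members, with replicates 1 to 3 in light blue and replicate 4 in dark blue. Replicates 1 to 3 lie close to 0, while replicate 4 is to their right in 27 members and to their left in 8, among them Slc7a11, Abcc4, Abcc1 and Gclc.

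The peptides differed from each other at 24 h. Set directly against Fz7-21S, dFz7-21 had 17 members higher and 2 lower, with 33.7% of all genes called (16.5% higher and 17.2% lower) and a median log2 difference of 0.25 over the members, against -0.01 over all genes. All 5 quinone, carbonyl and epoxide enzymes were among the 17, by 0.29 to 0.41 on the log2 scale, though Ephx1 was lost without replicate 3 of dFz7-21 (adjusted p = 0.0643). The largest difference upward was in Gstm3 (0.67 ± 0.12), then Srxn1 (0.59 ± 0.06, adjusted p = 1.68e-08), and the 2 lower members were Gpx2 and Abcc4 (-0.80 ± 0.13). Of the 11 members that rose with both peptides, 7 were higher with dFz7-21 than with Fz7-21S. The other four were not called, with 95% intervals of -0.02 to 0.15 for Gclm, -0.07 to 0.58 for Gsta2, -0.16 to 0.17 for Gsta3 and -0.03 to 0.48 for Mgst2. Slc7a11 gave an interval of -0.34 to 0.29. Without replicate 4 of Fz7-21S, 28 members were higher and 2 lower, with 5836 of 15709 genes called, and Gsta3 was then called (log2 0.14 ± 0.06, adjusted p = 0.0457). No dose is given in the labels, so equal doses are not known.

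At 6 h the dFz7-21 change was smaller and covered fewer members. Against DMSO, 9 rose and 1 fell, with 11.0% of all genes called (6.05% higher) and a median of 0.11 over the members against 0.01 over all genes. The 9 were Nfe2l2, Slc7a11, Nqo1, Cbr3, Akr1b8, Srxn1, Me1, Gsta4 and Osgin1, and Gpx2 fell. Akr1b8 had 64.1, 64.7, 67.3 and 60.7 CPM with dFz7-21, 55.3, 49.4, 49.5 and 48.2 CPM with Fz7-21S and 40.7, 40.1, 41.7 and 46.1 CPM with DMSO at 6 h. The 3 groups did not overlap, and Akr1b8 rose 1.52-fold with dFz7-21 (log2 0.61 ± 0.09, adjusted p = 6.95e-05). Cbr3 had 39.4, 34.3, 35.6 and 31.0 CPM with dFz7-21, 34.1, 29.5, 28.5 and 31.0 CPM with Fz7-21S and 24.1, 22.8, 25.2 and 25.7 CPM with DMSO, and rose by 0.52 ± 0.11 with dFz7-21 (adjusted p = 0.00215). Nqo1 had 130.2, 115, 121 and 116 CPM with dFz7-21, 121, 109.8, 114 and 111 CPM with Fz7-21S and 101, 94.8, 107 and 102 CPM with DMSO, and rose by 0.25 ± 0.06 with dFz7-21 (adjusted p = 0.00324). For both genes the dFz7-21 libraries were all above DMSO and overlapped Fz7-21S.

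Gpx2 was already lower at 6 h. It had 363, 378, 358 and 392 CPM with dFz7-21, 489.6, 490.4, 495 and 520.2 CPM with Fz7-21S and 549.9, 449, 526 and 530.0 CPM with DMSO. The dFz7-21 libraries were below all 8 others, and Gpx2 fell with dFz7-21 (log2 -0.46 ± 0.12 against DMSO, adjusted p = 0.0151, and -0.42 ± 0.12 against Fz7-21S, adjusted p = 0.0399). The stem cell genes summed to 1178 to 1394 CPM with dFz7-21, 1541 to 1660.4 CPM with Fz7-21S and 1685 to 1826 CPM with DMSO at 6 h. Most of each sum was Olfm4, with means of 1219, 1387 and 1502 CPM in the same order of groups. Lgr5 averaged 10.7, 38.2 and 44.4 CPM, Ascl2 13.7, 33.5 and 32.4 CPM, and Smoc2 68.8, 141 and 158 CPM. The Paneth cell genes summed to 5504 to 6253, 5526 to 6080.4 and 5199.6 to 6078 CPM in that order. The part of these cells in the Gpx2 result was not tested.

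Of the 10 calls at 6 h, 5 held in every fit that left out 1 library, against 31 of 33 at 24 h. Slc7a11 was lost in 18 such fits, Nfe2l2 in 7, those without replicate 1, 2 or 4 of dFz7-21 at 24 h, 1, 3 or 4 of dFz7-21 at 6 h or 4 of DMSO at 6 h, Gsta4 in 2 (replicate 1 of dFz7-21 or 2 of DMSO at 6 h), Srxn1 in 1 (replicate 1 of dFz7-21 at 6 h) and Gpx2 in 1 (replicate 1 of DMSO at 6 h, adjusted p = 0.052). Without the 3 libraries that hold mesenchymal transcripts, 2 of them DMSO at 6 h, Akr1b8 alone was called among the members (log2 0.55 ± 0.12, adjusted p = 0.00949), and 698 genes in all. The changes of the other nine kept their direction, for example 0.46 ± 0.14 for Cbr3 (adjusted p = 0.0731) and 0.20 ± 0.07 for Nqo1 (adjusted p = 0.113). The count was 17 without replicate 4 of Fz7-21S at 24 h, which belongs to neither group, with 3134 of 15709 genes called. It was 11 when the 3 libraries with mesenchymal transcripts were left out as well, with 2051 genes called, and 6 without replicate 1 of dFz7-21 at 6 h, with 1172 genes called.

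With Fz7-21S at 6 h no member was called in edgeR, with 0.00648% of all genes called, which is 1 gene, and 614 genes at an unadjusted p under 0.05. DESeq2 called 4 genes, and Gclm was the 1 member among them. The members' median was 0.09, against 0.01 over all genes. In 11 members the 4 Fz7-21S libraries all lay above the 4 DMSO libraries and in 0 all lay below, against 3.08% and 1.52% of all genes tested. Against Fz7-21S, dFz7-21 at 6 h had Akr1b8 higher (log2 0.34 ± 0.09, adjusted p = 0.0218) and Gpx2 lower, with 7.04% of all genes called (3.21% higher and 3.83% lower). Neither call held in every fit that left out 1 library. Me1, the next by p, had 41.3, 37.5, 35.5 and 37.2 CPM with dFz7-21, 32.9, 29.8, 31.2 and 29.3 CPM with Fz7-21S and 28.3, 27.6, 29.6 and 31.3 CPM with DMSO at 6 h, and the difference between the peptides was 0.30 ± 0.09 (adjusted p = 0.0502).

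The dFz7-21 change grew with time in many members. The difference between the 24 h and the 6 h change, tested as an interaction, was positive in 19 members and negative in 1 at an adjusted p below 0.05, with 13.2% of all genes called (7.37% higher and 5.78% lower). It was 0.61 ± 0.08 for Srxn1 (adjusted p = 7.45e-06), 0.55 ± 0.08 for Nqo1 (adjusted p = 2.29e-05) and 0.43 ± 0.06 for Gsr (adjusted p = 5.1e-05). Gsr had 412, 404, 393 and 420.4 CPM with dFz7-21 and 407, 398, 415 and 407 CPM with DMSO at 6 h, groups that overlapped. The widest gap was 1.16 ± 0.17 in Gstm3, whose change was 1.21 at 24 h and 0.05 at 6 h. All 5 quinone, carbonyl and epoxide enzymes were among the 19, and Abcc4 was the negative one (-0.69 ± 0.18). Ephx1 was highest in 2 libraries with mesenchymal transcripts, replicate 3 of dFz7-21 at 24 h (140 CPM) and replicate 2 of DMSO at 6 h (68.6 CPM). Its difference of 0.71 was as low as 0.46 in the alternative fits, and it stayed called in all of them. Slc7a11 and Gpx2 were not called, and their changes were 0.47 and -0.51 at 24 h and 0.51 and -0.46 at 6 h. The count was 31 without replicate 4 of Fz7-21S at 24 h, with 3756 of 15709 genes called, against 2029 with all libraries. Of the 20 calls 16 held in every fit that left out 1 library, and Gclm, Pgd, Me1 and Gsta3 were lost in 1, 2, 11 and 7 of them, all 4 without replicate 3 of DMSO at 24 h. For Fz7-21S no member and no gene was called in edgeR, with 1360 genes at an unadjusted p under 0.05, and DESeq2 called 11 genes, 2 of them members, Cbr3 and Akr1b8.

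**Figure D4:**
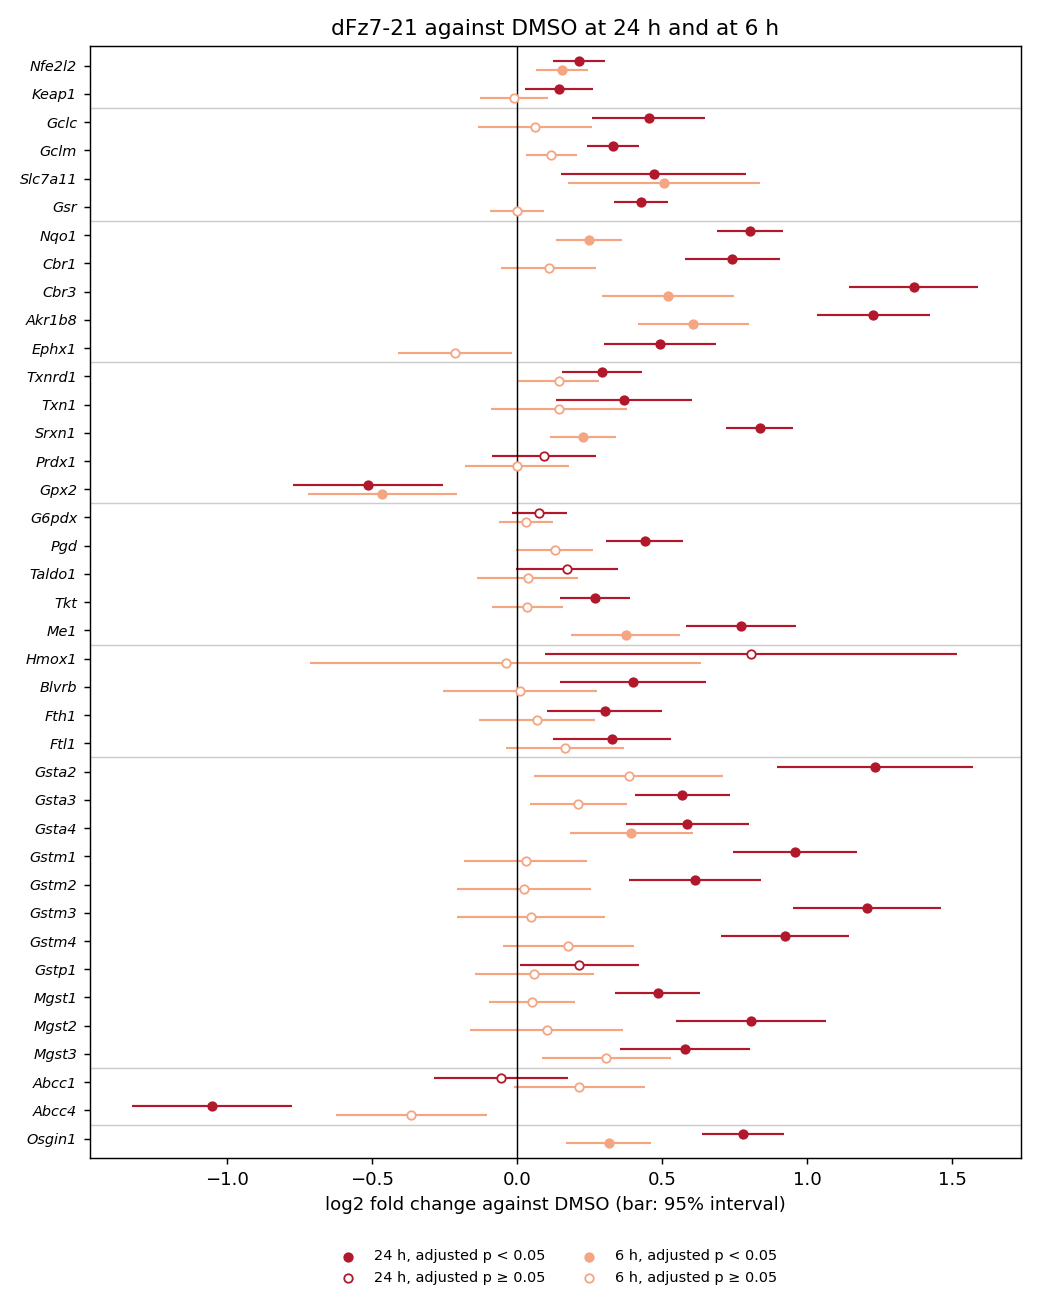
Log2 fold change of dFz7-21 against DMSO (x axis, 0 marked) for the 39 members, with 24 h in dark red above 6 h in light orange; bars are 95% intervals and filled points have an adjusted p below 0.05. The 24 h point lies right of the 6 h point in most rows, Gpx2 is left of 0 at both times, and Abcc4 moves further left at 24 h.

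The members also changed with time in culture with DMSO alone. At 24 h against 6 h, 22 rose and 8 fell, with 52.2% of all genes called (27.3% higher and 24.9% lower). Gsta3 had 159, 141, 137 and 157 CPM at 24 h and 59.1, 59.7, 61.1 and 62.6 CPM at 6 h, a rise of 1.29 ± 0.08 (adjusted p = 3.03e-12). Gclm had 132, 129, 121 and 129 CPM at 24 h and 88.2, 81.3, 87.8 and 84.3 CPM at 6 h, a rise of 0.58 ± 0.04, and Mgst1 had 342, 323, 326 and 320.4 CPM at 24 h and 171, 173, 189.8 and 187 CPM at 6 h, a rise of 0.86 ± 0.07. In these 3 genes the times did not overlap. Srxn1 and Akr1b8 went down in DMSO: Srxn1 had 209, 185, 181 and 184 CPM at 24 h and 266, 246, 281 and 279.9 CPM at 6 h (log2 -0.50 ± 0.06), and Akr1b8 fell by 0.49 ± 0.09. With dFz7-21 neither was called between the times, with 339 ± 18.8 CPM for Srxn1 at 24 h and 315 ± 17.4 CPM at 6 h, and 70.4 ± 2.62 CPM for Akr1b8 at 24 h and 64.2 ± 2.73 CPM at 6 h (95% intervals of the log2 difference -0.01 to 0.22 and -0.06 to 0.32). Abcc1 had 48.9, 51.3, 52.0 and 56.9 CPM at 24 h and 102, 99.8, 92.3 and 93.4 CPM at 6 h in DMSO, a fall of 0.89 ± 0.11 on the log2 scale. With dFz7-21, 29 members were higher and 2 lower at 24 h than at 6 h (59.9% of all genes called, 29.8% higher and 30.1% lower), and with Fz7-21S 29 were higher and 5 lower (59.1% of all genes called, 31.0% higher and 28.1% lower).

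Other genes of the same pathway were read from a separate list of 70, of which 69 were tested. With dFz7-21 at 24 h 35 rose and 3 fell, against 18.2% of all genes higher and 17.7% lower, with a median log2 change of 0.27. Of 9 partners and regulators 4 rose and 1 fell, and Nfe2l1, a relative of NRF2, and Mafk, a small MAF protein, rose by 0.28 ± 0.05 and 0.25 ± 0.05. Of 7 genes of glutathione synthesis and turnover 6 rose, among them Chac1 and Ggt1, which break glutathione down inside and outside the cell, by 0.87 ± 0.07 and 0.82 ± 0.13. Of 19 peroxidases, thioredoxins, glutaredoxins and related enzymes 6 rose and 1 fell, and Gpx1, the common cytosolic glutathione peroxidase, and Glrx, a glutaredoxin, rose by 0.59 ± 0.10 and 0.25 ± 0.05. Of 28 other transferases and reductases 16 rose and 1 fell, and Ugdh, which makes the sugar donor for glucuronidation, and Ugt1a7c, a glucuronosyltransferase, rose by 0.66 ± 0.05 and 0.70 ± 0.05. Of the 4 other exporters 3 rose, among them Abcc3 and Abcg2 by 0.60 ± 0.07 and 0.56 ± 0.07, and neither of 2 metallothioneins was called.

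With Fz7-21S at 24 h 3 of the 69 rose and none fell, against 0.259% of all genes, with a median of 0.17. The 3 were Ugdh (0.26 ± 0.05), Slc3a2, the partner chain of Slc7a11 (0.29 ± 0.06), and Chac1 (0.35 ± 0.07). No partner, peroxidase, exporter or metallothionein of the list was called, with 0.68 ± 0.15 for Mt2 (adjusted p = 0.0507), 0.18 ± 0.06 for Sqstm1, 0.35 ± 0.11 for Glrx5 and 0.12 ± 0.07 for Abcc3. With dFz7-21 at 6 h 7 of the 69 rose and none fell, against 6.05% of all genes higher, and with Fz7-21S at 6 h none was called, against 0.00648% of all genes.

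Targets of other regulators moved in the same libraries. Of 15 targets of ATF4, the factor of the amino acid response, which also drives Slc7a11, 12 rose and 2 fell with dFz7-21 at 24 h, against 18.2% of all genes higher and 17.7% lower, and 9 rose with Fz7-21S, against 0.259% of all genes. Chac1 and Slc3a2 are on this list too. Cth, which makes cysteine from cystathionine, rose by 0.89 ± 0.05 with dFz7-21 and 0.38 ± 0.05 with Fz7-21S. Cyp1a1, the best known target of the aryl hydrocarbon receptor, which also acts on Nqo1, averaged 74.3 CPM with dFz7-21, 75.6 CPM with Fz7-21S and 47.1 CPM with DMSO at 24 h. It rose by 0.66 ± 0.10 with dFz7-21 and 0.68 ± 0.10 with Fz7-21S. Targets of this receptor other than Cyp1a1 and Nqo1 are not described here. Of 9 targets of the xenobiotic receptors PXR and CAR, 8 rose with dFz7-21, such as Ugt1a1 (0.74 ± 0.06), and 1, Ces2a, with Fz7-21S (0.38 ± 0.08). These counts too stand against 18.2% of all genes higher with dFz7-21 and 0.259% with Fz7-21S. Their part in the member values was not tested.

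Markers of enterocytes, the absorptive cells that hold much of the gut's detoxifying enzymes, also moved with dFz7-21. The 10 enterocyte genes summed to 7624 to 8962 CPM with dFz7-21, 5222 to 6721 CPM with Fz7-21S and 4543 to 5502 CPM with DMSO at 24 h. All 10 rose with dFz7-21 against DMSO and none was called with Fz7-21S. At 6 h, where 9 members had risen with dFz7-21, the sums were 3866 to 4841 CPM with dFz7-21, 4097 to 4563 CPM with Fz7-21S and 3406 to 4493 CPM with DMSO, and 1 of the 10 genes rose. The 7 goblet cell genes summed to 2946 to 3512 CPM with dFz7-21, 2537 to 3374 CPM with Fz7-21S and 2419.8 to 2659.8 CPM with DMSO at 24 h, and 5 of the 7 rose with dFz7-21 while none was called with Fz7-21S. Spink4 of this list went the other way, with 322, 354, 336 and 302 CPM with dFz7-21 and 403, 408, 455 and 366 CPM with DMSO. At 6 h they summed to 2663 to 2682 CPM with dFz7-21, 2291 to 2381 CPM with Fz7-21S and 2238 to 2452 CPM with DMSO, and 2 of the 7 rose with dFz7-21. At both times the goblet sums with dFz7-21 lay above every goblet sum with DMSO. The part of the cell mix in the member changes was not tested.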

How the data were processed

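RNA sequencing counts of 24 organoid libraries were analysed, 4 in each of 6 groups. The deposited counts are reads aligned uniquely to each gene model, per the file headers, and the deposited RPKM values were adjusted by a size factor, per the file headers. Per the submitters' processing notes, GSNAP and GRCm38 were used. No version of the aligner, annotation, strand setting or read length is given in these sources. RPKM was used only to compare levels between genes.

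Counts of 15429 genes that passed filterByExpr were fitted in 1 model of all 24 libraries with edgeR 4.0.16 (TMM, robust quasi-likelihood test) in R 4.3.3, and Benjamini-Hochberg adjustment ran over every gene tested, with a call at an adjusted p below 0.05. Log2 changes are given ± SE with 95% intervals, both derived from the quasi-likelihood F statistic. DESeq2 1.42.0, RLE size factors, no filter, a minimum fold of 1.2, fewer libraries and each library left out in turn were the alternatives. The members and lists were chosen with earlier results of these data known. Values in every library are given for 10 fixed members and for the 3 smallest p-values in each direction or comparison. Replicate numbers showed no clear pairing of the samples. Members' Entrez identifiers were matched to RefSeq for names and positions (GRCm38.p6). Shared 50-base words were counted in GENCODE M21 transcripts, a length chosen here. Promoters were searched on both strands. Peptide doses and the nature of Fz7-21S are not in the labels.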

Additional observations from a re-analysis of the deposited data

Results flagged for a closer look

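Single libraries stood far from the other 3 of their group in 6 of the 108 sets of 4 examined over 18 members, and chance gives about 1 in 20 such sets. Replicate 3 of dFz7-21 at 24 h, the library with mesenchymal transcripts, was high in Hmox1 (31.3 CPM) and low in Nfe2l2 (331 CPM) and Gsr (648 CPM). Replicate 4 of Fz7-21S at 24 h was high in Gpx2 (1041 CPM). Replicate 1 of DMSO at 24 h was high in Srxn1 (209 CPM), and replicate 2 of Fz7-21S at 6 h was low in Mgst1 (174 CPM).

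The change with dFz7-21 differed between 24 h and 6 h in 20 members by the interaction test. The 24 h change exceeded the 6 h change, on the log2 scale, by 0.21 in Gclm, 0.43 in Gsr, 0.55 in Nqo1, 0.63 in Cbr1, 0.85 in Cbr3, 0.62 in Akr1b8, 0.71 in Ephx1, 0.61 in Srxn1, 0.31 in Pgd, 0.40 in Me1, 0.85 in Gsta2, 0.36 in Gsta3, 0.93 in Gstm1, 0.59 in Gstm2, 1.16 in Gstm3, 0.75 in Gstm4, 0.43 in Mgst1, 0.70 in Mgst2 and 0.46 in Osgin1. In Abcc4 the difference was -0.69, and in Ephx1 it was as low as 0.46 in the alternative fits.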

How the results depend on the processing

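With dFz7-21 against DMSO at 24 h, the count of called members was 33 and stayed within 1.5 times of it under every alternative other than a minimum fold of 1.2, which left 21 members and 2047 genes of 5537. At a minimum fold of 1.2 the counts were 1 member for dFz7-21 at 6 h (259 genes of 1704), 2 for Fz7-21S at 24 h (2 genes of 40), 7 for dFz7-21 against Fz7-21S at 24 h (1689 genes of 5202), 0 for that pair at 6 h (121 genes of 1086) and 10 for the 24 h minus 6 h difference of dFz7-21 (799 genes of 2029). It left 4566 genes of 8058 between the times in DMSO, 6040 of 9243 in dFz7-21 and 5719 of 9118 in Fz7-21S, and 0 genes instead of 1 for Fz7-21S at 6 h. With only the libraries of the same time or contrast, the counts were 19 members (3863 genes) for dFz7-21 at 6 h, 2 (4 genes) for Fz7-21S at 24 h and 10 (2824 genes) for the peptide pair at 6 h, with 3350 genes for that pair at 24 h, 3418 for the dFz7-21 time difference and 0 for Fz7-21S at 6 h. Without the 3 libraries with mesenchymal transcripts, the counts were 1 member (698 genes) for dFz7-21 at 6 h and 7 for Fz7-21S at 24 h, with no gene called for Fz7-21S at 6 h. DESeq2 gave 1 member for Fz7-21S at 6 h (4 genes), 5 for the peptide pair at 6 h, 2 for the Fz7-21S time difference (11 genes) and 136 genes for Fz7-21S at 24 h. No filter on low counts left 1 member for the peptide pair at 6 h. Where a setting moved a count, the cause was not tested, beyond the fewer libraries or the higher bar that the setting itself sets.

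When each of the 24 libraries was left out in turn, the members called numbered 31 to 35 for dFz7-21 at 24 h, 6 to 17 for dFz7-21 at 6 h, 7 to 26 for Fz7-21S at 24 h, 0 to 0 for Fz7-21S at 6 h, 19 to 30 for the peptide pair at 24 h, 0 to 9 for the pair at 6 h, 27 to 33 between times in DMSO, 31 to 34 in dFz7-21 and 33 to 35 in Fz7-21S, 16 to 31 for the dFz7-21 time difference and 0 to 0 for that of Fz7-21S. Leaving out replicate 4 of Fz7-21S at 24 h gave the highest counts for dFz7-21 at 6 h (17), the peptide pair at 24 h (30) and 6 h (9), and the dFz7-21 time difference (31). The pair at 6 h fell to 0 without replicate 1, 2 or 3 of dFz7-21 or replicate 2, 3 or 4 of Fz7-21S at 6 h, and to 1 without replicate 4 of dFz7-21 or 1 of Fz7-21S at 6 h, or replicate 3 or 4 of DMSO at either time. The next 2 settings were chosen after seeing the data: the 24 h libraries alone without replicate 4, and a fit without 4 libraries. Leaving out the 3 libraries and replicate 4 together gave 33 members for the peptide pair at 24 h, 11 for it at 6 h and 32 for the dFz7-21 time difference. In dFz7-21 against Fz7-21S at 24 h the uncalled values of 3 members changed sign and were called without replicate 4: Taldo1 became 0.14, and 0.16 without the 3 libraries as well, Fth1 0.16, 0.18 without the 3 as well and 0.14 with only the 24 h libraries, and Ftl1 0.15 without all 4. Without replicate 1 of Fz7-21S at 24 h the same 3 values were -0.0912, -0.109 and -0.0908.

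No clear pairing of the samples by replicate number was seen. Over 60 same-numbered pairs the correlation of deviations from the group means had a median of 0.0127 (range -0.516 to 0.320), and 5 exceeded 0.1. In 20 of 60 a library correlated best with its own number, out of 4 to choose from. The lowest and highest values were between dFz7-21 at 24 h and DMSO at 6 h, the groups with mesenchymal transcripts. Such a check cannot exclude a day or culture shared by same-numbered libraries. With the number as a replicate block the members called were 32 for dFz7-21 at 24 h, 10 for dFz7-21 at 6 h, 8 for Fz7-21S at 24 h, 0 for Fz7-21S at 6 h, 20 and 3 for the peptide pair at 24 h and 6 h, and 20 and 0 for the time differences of dFz7-21 and Fz7-21S.

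Groups of 4 libraries limit what can be seen of small changes, and leaving out 1 library moved the count for Fz7-21S at 24 h between 7 and 26. Uncalled members are not shown to be unchanged. Both peptides were compared with the same DMSO libraries. Whether replicates were separate cultures and the doses are not in the labels, and RNA levels say nothing of NRF2 protein or glutathione itself. Changes in the mix of cell types were not separated from changes within cells.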
